A study of Caenorhabditis elegans with 6 samples.

Results

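The haf genes of Caenorhabditis elegans encode half-size ABC transporters, membrane proteins that use ATP to move molecules across a lipid bilayer. All 8 haf genes (haf-1, haf-2, haf-3, haf-4, haf-6, haf-7, haf-8 and haf-9) were followed here, among 20437 genes named on the array. They were found by matching the sequence name of every probe to a gene table, which gave 12 haf probes among 43603. Each of 7 haf genes was read by a single probe, and haf-9 by 5. RNA came from whole young adults, collected before reproduction, of the wild type (WTN2) and of strain RB1035, which carries a mutant flcn-1 allele and had been backcrossed to WTN2 8 times. Folliculin, the human protein that flcn-1 corresponds to, is a tumour suppressor. Each strain had 3 arrays, called biological triplicates by the submitters, and no treatment was given to either. The nature of the allele, and any other way in which RB1035 differs from WTN2, are not given in the sources used here. Because each array reads whole animals, fewer cells of a type and less RNA per cell cannot be told apart.

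A full ABC transporter carries a pair of membrane domains and a pair of ATP-binding domains on a single chain. A half-transporter carries a single copy of each and works as a dimer, with itself or with another half-transporter. In C. elegans HAF-1 lies in the mitochondrial inner membrane, exports peptides and takes part in the mitochondrial unfolded protein response. HAF-4 and HAF-9 lie in the membrane of gut granules, the lysosome-related organelles of the intestine, and are needed for the normal formation of one class of these granules. HAF-6 lies in the endoplasmic reticulum and is needed for efficient RNA interference. No role is stated here for HAF-2, HAF-3, HAF-7 and HAF-8.

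The family was chosen with the fall of haf-6 in RB1035 already known, so differences between the strains are given for its members as a description. The adjusted p of haf-6 is printed as the value that chose it and is not a test of it. Levels are log2 of the processed signal minus the 75th percentile of the same array. A level of 0 is therefore as bright as the probe at that percentile. Probes differ in how well they bind, so levels are compared between arrays for a given probe and not between genes. A gene with several probes is represented by its brightest. Differences are RB1035 minus WTN2, and intervals are 95% confidence intervals from limma, a linear model with the spread between arrays moderated over all 19820 features.

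The arrays lay on 2 slides, each scanned at a time of its own. Slide 1 held WTN2 1 and RB1035 1, and slide 2 held the other 4 arrays. Between 68.1% and 73.1% of probes were well above background. On RB1035 2 and RB1035 3, both on slide 2, copies of the same probe varied with a median coefficient of variation of 22.4% and 20.9%, against 8.19% to 10.9% on the other arrays. With 3 arrays per strain, the number of arrays limits the precision of every value.

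The transcript of haf-6, the gene needed for efficient RNA interference, was lower on every RB1035 array than on any WTN2 array. Its level was 0.73, 1.00 and 0.41 on WTN2 1, 2 and 3 and -1.91, -1.31 and -1.51 on RB1035 1, 2 and 3. The probe was well above background on all 6 arrays, so signal from it was still read in the mutant. Before scaling, the processed signal was 2809, 3307 and 2871 on the WTN2 arrays and 643, 865 and 660 on the RB1035 arrays. The highest RB1035 level lay 1.72 below the lowest WTN2 level, a gap wider than the range within either strain, which was 0.58 in WTN2 and 0.61 in RB1035. The mean level was 0.71 ± 0.29 in WTN2 and -1.58 ± 0.31 in RB1035 (SD, n = 3 each). The difference was -2.29 ± 0.30 (SE), with an interval from -2.97 to -1.61, which is 4.89-fold lower in RB1035.

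This value, and the call that came with it, brought the family forward. In the fit across all features haf-6 was the least significant of the 20 features past the threshold of 0.05 (limma adjusted p = 0.0435). Just inside the threshold beside it stood lys-7 (2.37, adjusted p = 0.0317) and fbxa-110 (-2.41, adjusted p = 0.0286). Just outside stood C55C3.7 (2.68, adjusted p = 0.0568) and Y45G12C.4 (-2.96, adjusted p = 0.061). Among the 7 haf genes that could be fitted, 1 was past the threshold, and 0.101% of all features were. The rule used this contrast, so nothing is read from that count. By size, 29 of the 19820 features had a lower difference than haf-6. Leaving out single arrays ended the call in 6 of 6 cases, at a limma adjusted p between 0.0778 and 0.29. The difference then lay between -2.44 and -2.12, and as the strains did not overlap, its direction could not change. The call also ended with slide as a block (limma adjusted p = 0.0739) and with the replicate number as a block (limma adjusted p = 0.0623).

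**Figure D1:**
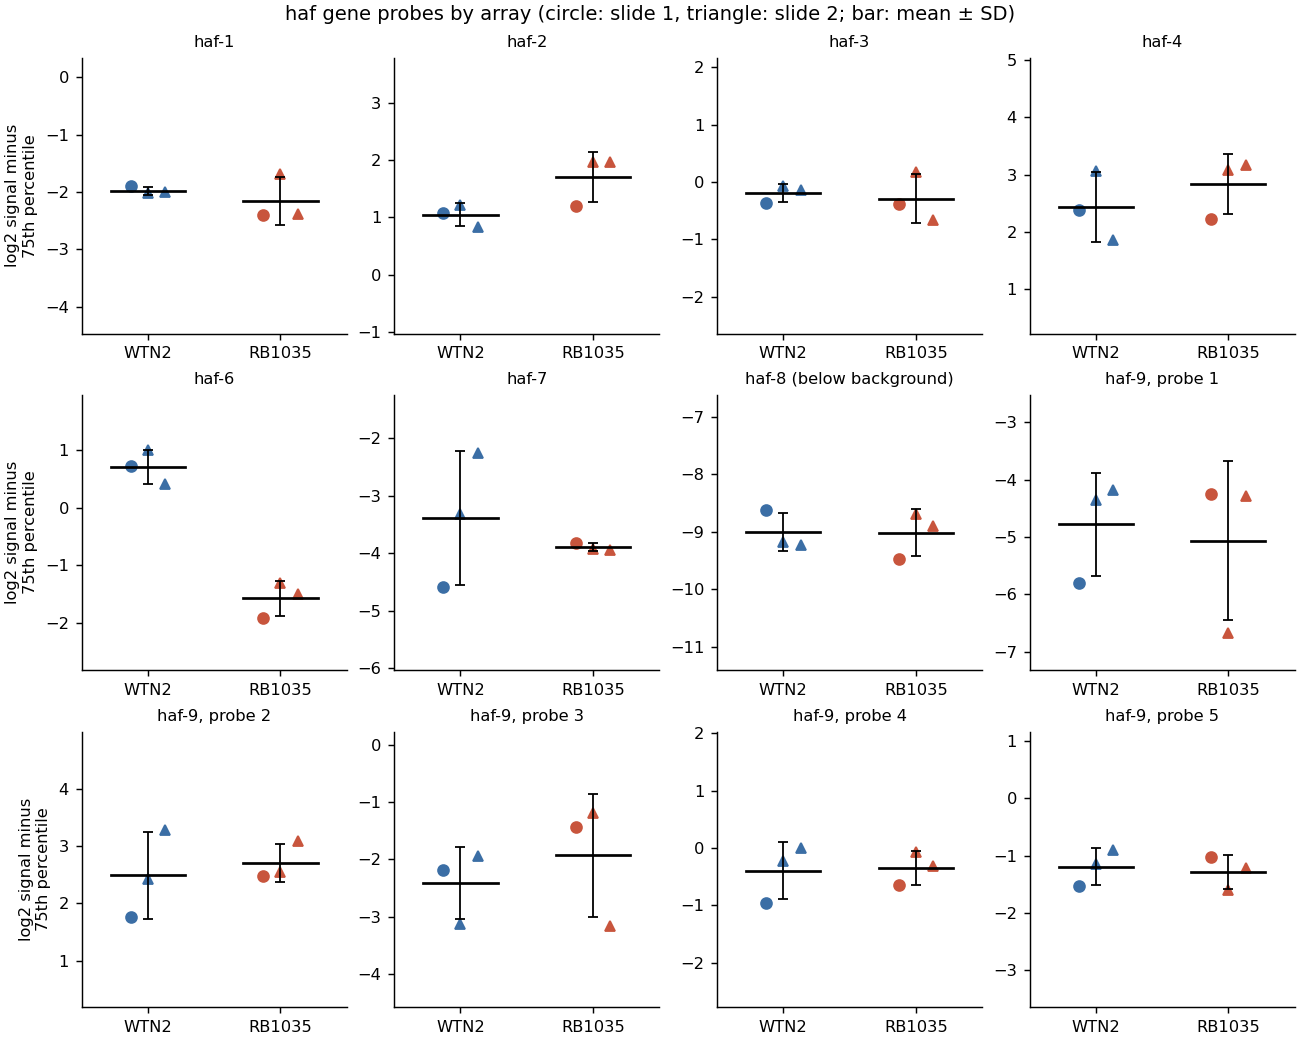
Level of each of the 12 haf probes (log2 signal minus the array's 75th percentile) on the 3 WTN2 and 3 RB1035 arrays. Points are arrays (circles on slide 1, triangles on slide 2), lines are strain means and bars are SD. The strains separate for haf-6, from 0.41 upward in WTN2 to -1.31 and below in RB1035, and overlap for every other probe.

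The lower level of haf-6 was present on both slides, which are parts of the arrays that chose it. With a gap of 1.72 between the strains, any split of these arrays gives a lower level in RB1035. The values by slide are therefore a description. On slide 1, with 1 array per strain, haf-6 differed by -2.64, and on slide 2, with 2 arrays per strain, by -2.11. The deposited series table, the authors' own processed values, gave levels of 11.93, 11.80 and 11.32 on WTN2 1, 2 and 3 and 9.20, 9.62 and 9.16 on RB1035 1, 2 and 3, again with no overlap. On that scale the difference was -2.36. Over all alternatives the difference of haf-6 lay between -2.64 and -2.11. A single probe reads haf-6, so agreement between probes could not be examined, and which of its transcripts the probe reads was not tested. Whether the strains differ in sequence under that probe could not be examined either.

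**Figure D2:**
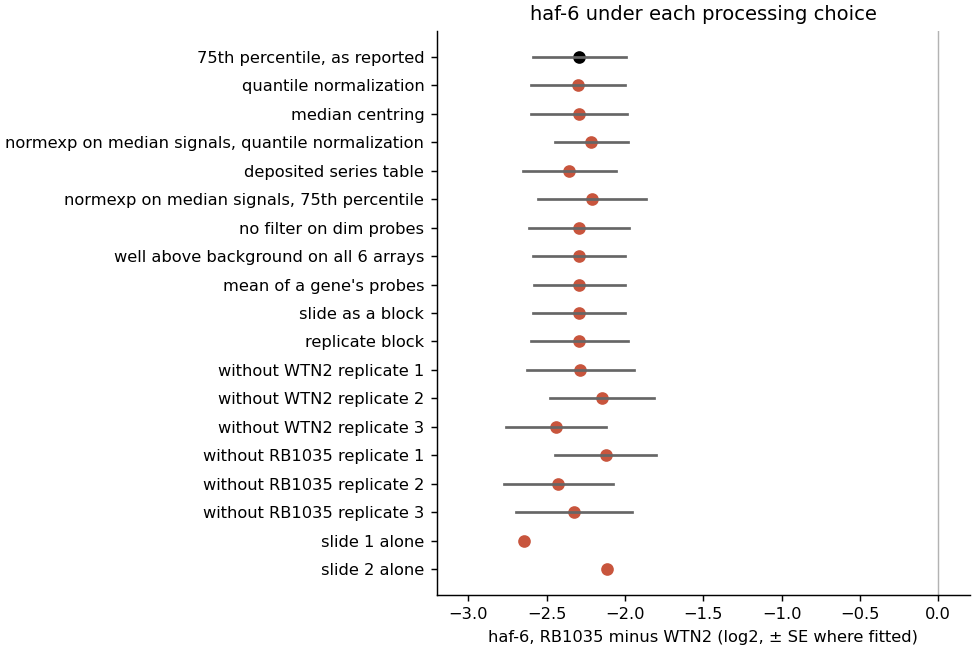
Difference of haf-6 (RB1035 minus WTN2, log2) as reported and under each other way of processing, with SE where a model was fitted. Every value lies between -2.64 and -2.11, and the 2 values without a bar come from the slides taken alone.

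The mitochondrial peptide exporter gene haf-1 had overlapping levels in the strains. It was at -1.90, -2.02 and -2.01 on WTN2 1, 2 and 3 and at -2.40, -1.68 and -2.39 on RB1035 1, 2 and 3. Of the RB1035 arrays, 2 lay below all WTN2 arrays and RB1035 2 above them. The difference was -0.18 ± 0.30 (SE), with an interval from -0.85 to 0.50. Leaving out RB1035 2 gave -0.42 for haf-1, and leaving out RB1035 1 or RB1035 3 gave -0.06.

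The gut granule gene haf-4 was read at 2.38, 3.07 and 1.86 on WTN2 1, 2 and 3 and at 2.23, 3.09 and 3.18 on RB1035 1, 2 and 3. Both RB1035 arrays of slide 2 were high, but WTN2 2 reached the same level and the strains overlap. Its difference was 0.40 ± 0.40 (SE), with an interval from -0.52 to 1.32. On slide 1 the difference of haf-4 was -0.15 and on slide 2 it was 0.67, so its sign was not the same on both slides. Without WTN2 3 the difference of haf-4 was 0.11 and without RB1035 3 it was 0.22, while without WTN2 2 it was 0.71 and without RB1035 1 it was 0.70.

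Its partner haf-9 has 5 probes, of which 4 carry the name of transcript ZK484.2a.1 and 1 that of ZK484.2b. By the brightest probe haf-9 was at 1.76, 2.43 and 3.27 on WTN2 1, 2 and 3 and at 2.47, 2.55 and 3.08 on RB1035 1, 2 and 3. By these levels the lowest and the highest array were both wild type. In the deposited series table both were mutant, RB1035 3 at 12.51 and RB1035 2 at 13.43. By the levels first given, the difference of haf-9 was 0.22 ± 0.41 (SE), with an interval from -0.72 to 1.15. It turned to -0.15 without WTN2 1, was 0.61 without WTN2 3, 0.33 without RB1035 1 and 0.03 without RB1035 3. Over the 5 haf-9 probes the differences ran from -0.29 to 0.49, with 3 higher and 2 lower in RB1035, and the strains overlapped on all 5. All 5 were higher in RB1035 on slide 1, and 4 of 5 were lower on slide 2. The probe named for ZK484.2b was well above background on 2 of 3 arrays of each strain. Its levels were -5.81, -4.35 and -4.17 in WTN2 and -4.24, -6.67 and -4.29 in RB1035, so a single array per strain lay low. The probe with the largest haf-9 difference was at -2.18, -3.12 and -1.94 in WTN2 and at -1.43, -1.19 and -3.15 in RB1035, where RB1035 3 was the lowest of all 6 arrays.

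**Figure D3:**
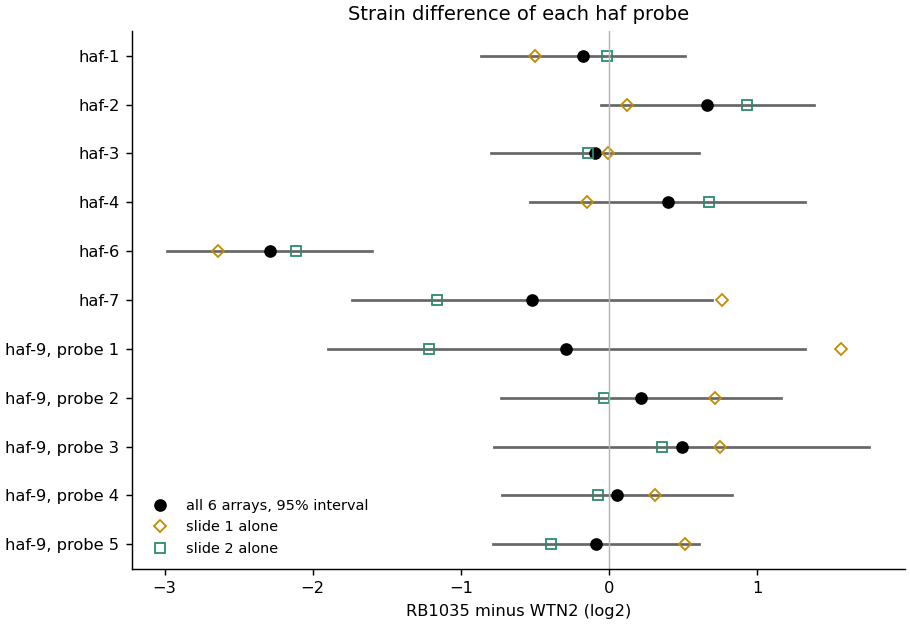
Difference between strains (RB1035 minus WTN2, log2) of the 11 haf probes that passed the filter on dim probes, with the 95% confidence interval over all 6 arrays and the values on each slide alone. Intervals here come from a fit of every kept probe, so they differ slightly from those of the text. The interval of haf-6 runs from -2.98 to -1.60, and every other interval contains 0.

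Of the genes with no role stated above, haf-2 was the highest in RB1035 relative to the wild type. Its level was 1.08, 1.22 and 0.83 on WTN2 1, 2 and 3 and 1.20, 1.96 and 1.96 on RB1035 1, 2 and 3. RB1035 1 lay among the wild type arrays, while the other mutant arrays lay above all of them. The difference of haf-2 was 0.66 ± 0.31 (SE), with an interval from -0.05 to 1.37. It was 0.12 on slide 1 and 0.93 on slide 2. On slide 2 the mutant arrays are the arrays whose probe copies varied most, and the part of this in the value of haf-2 was not tested.

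The levels of haf-3 were -0.37, -0.08 and -0.13 in WTN2 and -0.38, 0.17 and -0.66 in RB1035. The mutant arrays lay on both sides of the wild type. Its difference was -0.10 ± 0.30 (SE), with an interval from -0.79 to 0.60, and it turned to 0.09 without RB1035 3. It was -0.32 without RB1035 2, -0.18 without WTN2 1, -0.07 without WTN2 3, -0.05 without RB1035 1 and -0.04 without WTN2 2.

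The levels of haf-7 were -4.58, -3.31 and -2.25 in WTN2 and -3.82, -3.93 and -3.95 in RB1035. By these levels the mutant arrays of haf-7 were close together, with an SD of 0.07. They lay within the wild type range, where the SD was 1.17. This did not hold in the deposited series table, with 6.90, 7.24 and 7.74 in WTN2 and 6.77, 7.31 and 5.91 in RB1035. There RB1035 1 and RB1035 3 lay below all wild type arrays. By the levels first given, the difference of haf-7 was -0.52 ± 0.53 (SE), with an interval from -1.73 to 0.69. Slide 1 gave 0.76 for haf-7 and slide 2 gave -1.16. Leaving out WTN2 3 turned the sign, to 0.05, and leaving out WTN2 1 gave -1.12. The probe of haf-8 stayed too close to background to count as detected on all 6 arrays. Its processed signal lay between 2.88 and 5.22, and no fold is given for it.

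Over the family, 3 of the 7 fitted haf genes were higher and 4 lower in RB1035, with a median difference of -0.10 against 0.00 over all features. Without haf-6 the median of the remaining 6 was 0.06, and their differences lay between -0.52 (haf-7) and 0.66 (haf-2). The arrays of the strains did not overlap for 1 of the 7, haf-6, and for 12% of all features. The rule used this contrast, and nothing is read from that count either. The pooled SD within strains was 0.30 for haf-6 and for haf-1, below that of 71.8% and 72.7% of features respectively. It was 0.83 for haf-7, above that of 90.4% of features. The SD of haf-6 entered the statistic that chose it, so nothing is read from its rank.

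A contrast that played no part in choosing the family is that between the slides, since each slide held both strains in equal number. All 7 haf genes were somewhat higher on slide 2 than on slide 1 once strain was in the model. The differences ran from 0.12 (haf-1) to 0.84 (haf-7), against a median of -0.02 over all features. The share of all features higher on slide 2 was not counted, so no trait of the 7 haf genes is read from this. By limma none passed the threshold (lowest adjusted p = 0.613, for haf-9; 0 of 7 with an unadjusted p under 0.05). The background for that count is 0% of features called, with 1749 of 19820 at an unadjusted p under 0.05. For haf-6 the slides differed by 0.24 ± 0.31 (SE; limma adjusted p = 0.834).

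The gene order around haf-6 was examined after its value was seen. The gene lies on chromosome I, as do haf-4 and haf-9. The 5 tested genes on each side of haf-6 differed by -0.54 to 0.71, with 4 lower and 6 higher in RB1035. By limma none of the 10 passed the threshold, and 0 of 10 had an unadjusted p under 0.05, against 0.101% and 7.24% of all features. With so few features called, a count of 0 among 10 is not a result about these genes. The closest on either side were Y48G8AL.7 (-0.54 ± 0.35, SE), whose annotated span overlaps that of haf-6 in assembly WBcel235, and smg-2 (-0.35 ± 0.45, SE), a factor of nonsense-mediated mRNA decay. Of 2433 tested genes of chromosome I, haf-6 was the only one past the threshold, with 165 at an unadjusted p under 0.05. As haf-6 was chosen through that call, nothing is read from the count of genes past the threshold. Around the other 6 fitted haf genes, none of 60 neighbours passed, and 5 had an unadjusted p under 0.05.

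**Figure D4:**
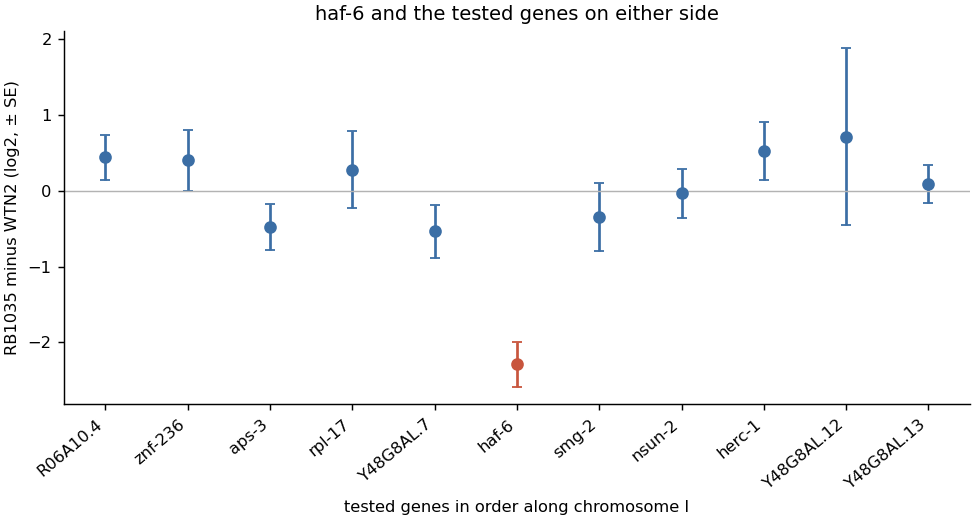
Difference between strains (RB1035 minus WTN2, log2, ± SE) of haf-6 and the 5 tested genes on each side of it, in gene order along chromosome I. The neighbours lie between -0.54 and 0.71, and haf-6 at -2.29.

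Genes whose arrays followed haf-6 most closely were named by Pearson's r of the level over the 6 arrays, among 14167 other genes well above background on all of them. They were C01B4.7 (r = 0.99), the F-box gene fbxb-56 (r = 0.99), F15E6.4 (r = 0.98), T28A11.6 (r = 0.97) and the cytochrome P450 gene cyp-13A5 (r = 0.97). In all 42 genes had an r of at least 0.9. The 6 arrays share the split into strains, so a high r here goes with a lower level in RB1035. The differences of C01B4.7, fbxb-56, F15E6.4, T28A11.6 and cyp-13A5 were -1.49, -1.08, -1.05, -0.51 and -1.29, each smaller than that of haf-6. None of these 5 passed the threshold (limma adjusted p from 0.306 to 0.65).

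The closest relatives of the haf genes in the worm are a pair of other ABCB half-transporter genes, hmt-1 and abtm-1. HMT-1 protects against cadmium and other heavy metals, and abtm-1 is the counterpart of the mitochondrial exporter of yeast and humans that serves iron-sulphur proteins outside the mitochondrion. By its brightest probe hmt-1 was at 0.44, 1.09 and 0.32 on WTN2 1, 2 and 3 and at 0.81, 1.27 and 1.28 on RB1035 1, 2 and 3, a difference of 0.51 ± 0.31 (SE; limma adjusted p = 0.654). A second probe of hmt-1 differed by 0.60. The third differed by 2.43, with levels of 0.45, -3.01 and -2.33 in WTN2 and -0.30, 1.25 and 1.45 in RB1035. Among wild type arrays that probe was lowest on WTN2 2, where the others were highest. The 6 probes of abtm-1 differed by -0.15 to 0.25, and its brightest had a limma adjusted p of 0.767.

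Among the other ABC families, 48 genes were tested in 7 lists and none passed the threshold by limma (lowest adjusted p = 0.65; 2 with an unadjusted p under 0.05). The shares over all features were 0.101% past the threshold and 7.24% at an unadjusted p under 0.05, so 0 of 48 is near the background. Of these 27 were higher and 21 lower in RB1035, with a median difference of 0.09 against 0.00 over all features. None was as low as haf-6: the lowest difference was -1.49 (pgp-1) and the highest 1.09 (pgp-14), both P-glycoproteins, which pump foreign compounds out of cells. P-glycoproteins had a median of 0.11 over 13 genes, with pgp-6 at -0.33 and pgp-9 at 0.11. Transporters of the ABCC family, which include multidrug resistance proteins, had a median of 0.51, and 8 of 9 were higher, among them mrp-1 (0.51), while mrp-3 differed by -0.02. Peroxisomal half-transporters had a median of -0.29 over 5 genes, with pmp-1 at -0.50 and pmp-5 at -0.29. Half-transporters of the ABCG family had a median of -0.20 over 9, though wht-2 differed by 0.63 and wht-7 by 0.49. ABCA transporters had a median of -0.09 over 6, with the cell corpse engulfment gene ced-7 at 0.76 and abt-1 at -0.26. ABC proteins without a membrane domain, which act in translation, lay between -0.16 and 0.16, with abcf-1 at 0.01 and abcf-2 at 0.16.

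**Figure D5:**
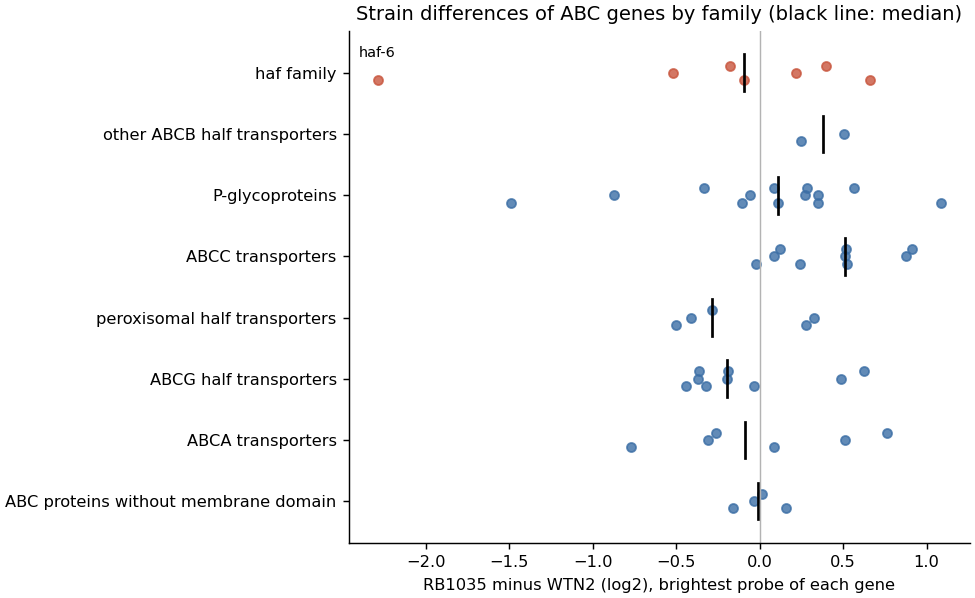
Difference between strains (RB1035 minus WTN2, log2) of each tested ABC gene by its brightest probe, grouped by family, with the median of each family as a black line. The haf genes other than haf-6 lie between -0.52 and 0.66, and the other families between -1.49 and 1.09.

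Genes of the processes in which HAF proteins act were examined next. None of the 47 tested genes of these 3 lists passed the threshold by limma, against 0.101% of all features, and 0 had an unadjusted p under 0.05, against 7.24%. RNA interference genes, the process of haf-6, were higher in 11 and lower in 12 of 23, with a median of -0.07. Their brightest members were the endonuclease gene rde-8 (-0.07 ± 0.27, SE) and ego-1 (0.41 ± 0.33, SE), an RNA-dependent RNA polymerase of the germline. Genes of the mitochondrial unfolded protein response, the process of haf-1, were lower in 7 of 10 with a median of -0.08, with spg-7 at -0.18 and timm-23 at -0.06. Genes of gut granule formation, the process of haf-4 and haf-9, were higher in 8 and lower in 6 of 14 with a median of 0.07, with cup-5, a lysosomal channel gene, at 0.42 and blos-2 at 0.07.

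Markers of tissues were set beside these values. None of 59 tested markers in 7 lists passed the threshold by limma, against 0.101% of all features, and 8 had an unadjusted p under 0.05, against 7.24%. No marker list lacked a defining gene through signals below background. Intestine markers, from the tissue of the gut granules, had a median of 0.14 with 9 of 10 higher, and their mean deviation ran from -0.13 to 0.00 on WTN2 arrays and from -0.15 to 0.22 on RB1035 arrays. Germline markers had a median of 0.11 over 8, oocyte markers 0.53 over 10 and neuron markers 0.18 over 8. Sperm markers were lower in 10 of 11, with a median of -0.59, and deviated by 0.13 to 0.39 on WTN2 arrays and by -0.34 to -0.13 on RB1035 arrays. Body wall muscle and pharynx markers were higher in 6 of 6 each, with medians of 1.53 and 0.98. Muscle markers deviated by -1.48 to 0.20 on WTN2 arrays and by -0.60, 1.41 and 1.16 on RB1035 1, 2 and 3. Pharynx markers deviated by -1.09 to 0.58 on WTN2 arrays and by -0.33 to 1.27 on RB1035 arrays, so both lists overlap between the strains. On RB1035 2 and 3 haf-2 and haf-4 were also high. Among the wild type arrays, the muscle markers (0.20), haf-2 (1.22) and haf-4 (3.07) were each highest on WTN2 2. The part of the muscle shift in haf-2 and haf-4 was not tested. The part of the sperm, oocyte, muscle and pharynx shifts in the level of haf-6 was not tested.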

How the data were processed

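Per the file headers, the deposited intensity values were extracted by the authors with Agilent Feature Extraction 10.7.3.1 from 1-colour (Cy3) arrays. The processed signal intensity has background subtracted and, except on RB1035 2, a multiplicative surface divided out, with no normalization between arrays. In the series table the authors deposited log2 values with medians of 7.61 to 7.62 per array. Its making is not described in the labels or headers.

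Control spots (1417 of 45220) and 149 probes with an outlier flag were left out, and copies of a probe were averaged. A probe was kept where 3 or more of the 6 arrays read it well above background (31224 probes). Each gene was represented by its brightest probe. Names came from a gene table of assembly WBcel235, whose build is not that of the array design, so no coordinates are given. Of 43603 probes 34320 matched it, and 1072 sequence names not in it were kept as they stand. Sequences of probes, promoters and proteins were not used here.

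Strains were compared with limma 3.58.1 in R 4.3.3, with Benjamini-Hochberg adjustment over 19820 features (15544 named genes, 4276 probes without a name). Replicate numbers were not used in the model, and the labels tie same-numbered arrays to no shared litter or day. Deviations of same-numbered arrays from their strain means correlated with r of 0.12, 0.12 and 0.02. Those of differently numbered arrays had r of -0.37 to 0.25. The haf genes, the gene lists and the tests were chosen with earlier results of these data known. The text names every haf gene and probe, hmt-1, abtm-1, in each ABC or process list the 2 genes with the highest mean level over all arrays and any past the threshold, and the 5 genes most like haf-6. The genes beside haf-6 and the extremes pgp-1 and pgp-14 were named after their values were seen. No name was matched for 7 listed genes. Alternatives were other scalings, background corrections, filters, probe summaries and blocks, the series table, single slides and leaving out each array.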

Additional observations from a re-analysis of the deposited data

How the results depend on the processing

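The strain difference of haf-6 kept its direction under all 18 alternatives, which reuse the arrays that chose it. The call that chose it was lost in 11 of the 16 alternatives that had a test. These were a probe filter of all 6 arrays (-2.29, adjusted p = 0.0989), no filter (-2.29, adjusted p = 0.105), slide as a block (-2.29), normexp with the 75th percentile, chosen after seeing the data (-2.21, adjusted p = 0.0721), and leaving out any 1 array (-2.44 to -2.12). With the replicate block haf-6 stayed at -2.29 (adjusted p = 0.0623), while the number of features called was 30 against 20 without it, and the pairing of the numbers is not given by the labels. With normexp and quantile normalization, and in the deposited series table, the adjusted p was 0.0208 and 0.015. The number of features called was 11 with normexp and the 75th percentile and 1 under the strictest probe filter. The cause of these changes was not tested. On slide 1 alone haf-1 differed by -0.50, haf-2 by 0.12, haf-6 by -2.64 and haf-7 by 0.76, each more than 1 SD from its value over all arrays. The sign was not kept by haf-3 (1 alternative), haf-4 (1), haf-7 (2) and haf-9 (5), none of which was called. Calls in the pathway lists and of haf genes between slides were 0 under every alternative run. The probe of haf-8 entered only the fit with no filter, where neither strain was well above background on any of its arrays.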

Other observations

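By the levels used here, the wild type arrays differed most from each other for haf-7 among the 12 haf probes. It ran from -4.58 on WTN2 1 to -2.25 on WTN2 3, a range of 2.33, while the RB1035 arrays of haf-7 spanned 0.13. This depended on the processing. In the deposited series table the WTN2 arrays of haf-7 ran from 6.90 to 7.74 and the RB1035 arrays from 5.91 to 7.31. There the wild type arrays of the haf-9 probe named for ZK484.2b ran more widely, from 5.28 to 6.77.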
